A study of Mus musculus with 2 samples.

Results

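The genes described here encode the initiation and elongation factors of cytoplasmic protein synthesis, read by long-read RNA sequencing in mouse adrenal gland. They are the protein-coding genes of chromosomes 1 to 19 whose symbols begin with Eif1 to Eif6 or with Eef1 or Eef2. The rule found 65 genes among 18111 annotated genes with a read in either library. It also takes in relatives named after a factor, namely the eIF2 kinases, the 4E-binding proteins and the enzymes that modify elongation factors, and it leaves out the X-linked Eif1ax and Eif2s3x. Both libraries came from adrenal glands of female B6CASTF1/J mice, the first-generation hybrid of the C57BL/6J and CAST/EiJ strains, at an age of 14 days, and the labels name no treatment or engineered allele. They are biological replicates 2 and 1 of a single group of 2 libraries, so the design sets no condition against another and each comparison below is between these 2 libraries. The tissue sample of replicate 2 is named for 1 female and that of replicate 1 for 3 females, while both library descriptions speak of 3, so how many animals each library holds could not be settled. The labels give both the same donor record, so a p-value here measures only the difference between these 2 libraries, which may be technical. The spike-in RNAs were Ambion mix 1 and a Lexogen set of long reference transcripts.

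Initiation begins when eIF2, carrying GTP and the initiator tRNA, joins the small ribosomal subunit together with eIF1, eIF1A, eIF3 and eIF5. The mRNA is brought in by the cap-binding protein eIF4E, the scaffold eIF4G and the helicase eIF4A, and after the start codon is found the elongation factors eEF1 and eEF2 deliver tRNAs and move the ribosome along. Phosphorylation of eIF2 and sequestration of eIF4E by the 4E-binding proteins are the best-known brakes on this pathway. The adrenal gland joins a steroid-making cortex to a catecholamine-making medulla, and both depend on steady synthesis of enzymes and secretory proteins.

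The files held 946553 reads on annotated genes in replicate 2 and 1065570 in replicate 1. Levels are given as reads per 1000000 of these gene reads (CPM); each long read stands for 1 cDNA whatever its length, so the values were not divided by length. How far long cDNAs were read less often than short ones was not tested. A count of 0 reads allows a level of up to 3 reads, which is 3.17 CPM in replicate 2 and 2.82 CPM in replicate 1. The tissue label was checked against marker genes. The 6 steroid cortex markers together took 2.44% of gene reads in replicate 2, against 5.51% in replicate 1, and the 6 chromaffin markers took 0.504% in replicate 2, against 1.30% in replicate 1. The 10 hepatocyte markers, which mark liver and not adrenal cells, took 5.12% in replicate 2, against 0.0450% in replicate 1. Skeletal muscle markers took 0.271% in replicate 2, against 0.00816% in replicate 1, where Tnnt3 and Myh1 were at 0. The 5 adipocyte markers took 0.774% in replicate 2, against 0.674% in replicate 1. Replicate 2 thus held fewer reads from adrenal markers and more from markers of liver and muscle, and the part of this in the ratios below was not tested. In such bulk tissue, fewer cells of a type and less RNA per cell cannot be told apart.

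All 65 genes together held 8523 reads in replicate 2, or 0.900% of gene reads (exact Clopper-Pearson 95% interval 0.881% to 0.920%), against 12592 reads in replicate 1, or 1.18% (1.16% to 1.20%). The mean was 1.04% ± 0.199 (SD, n = 2). Intervals and read limits here cover counting error only, since no molecular identifiers are given for the reads. Reads of the family were concentrated in few genes: the 10 highest held 54.4% of them in replicate 2 and 53.9% in replicate 1. A read was seen for 63 genes in each library and for 61 in both, and 25 genes stood at 100 CPM or more in both. The order of the genes was much alike in both libraries (Spearman's rho 0.98 over 65 genes, a description of libraries that share tissue and annotation).

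**Figure D1:**
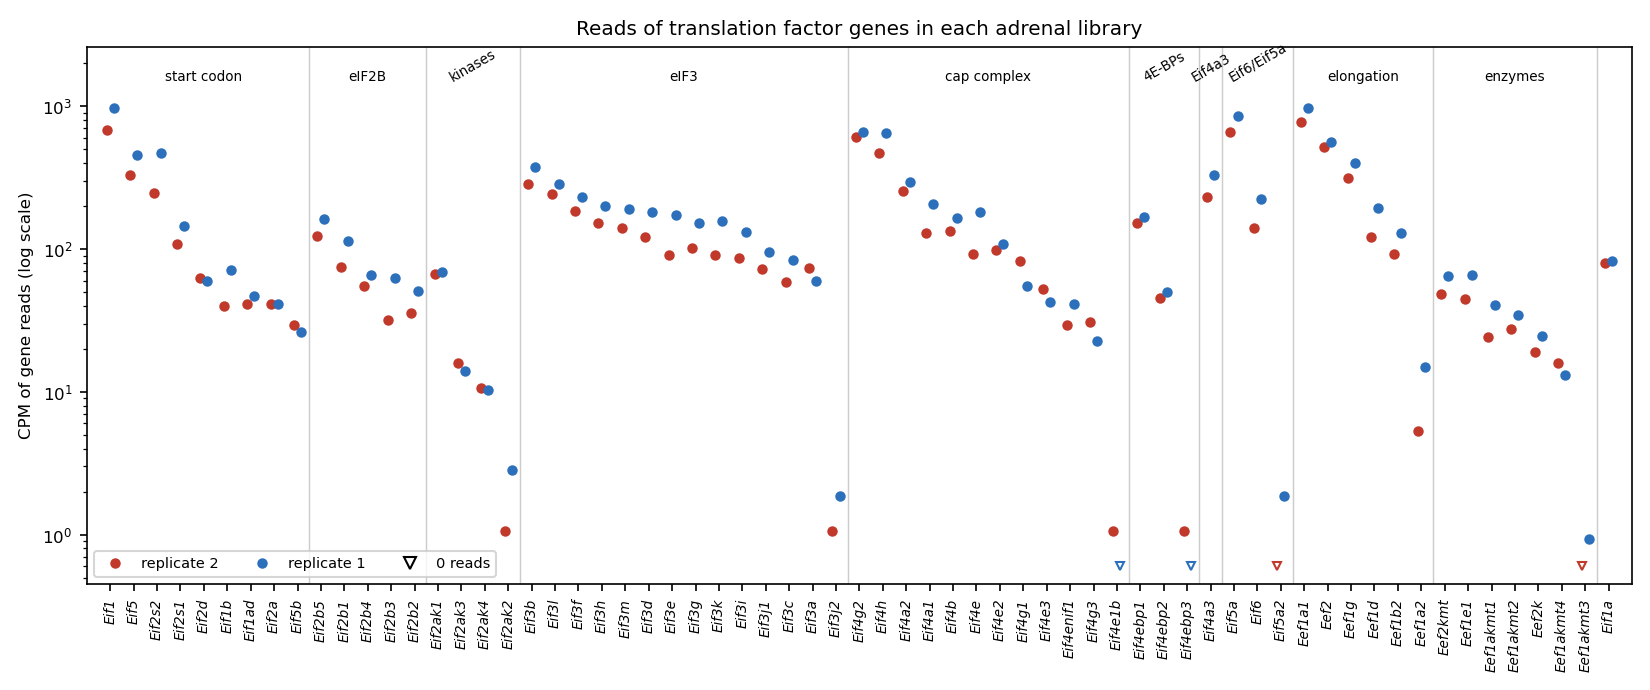
Level of each of the 65 genes (CPM of gene reads, log scale) in replicate 2 (red) and replicate 1 (blue), grouped by role and ordered by mean level within a role, with the gene in no role list at the right; open triangles mark a library with 0 reads. Eif1, Eef1a1 and Eif5a lie highest in both libraries, and Eif2ak2, Eif3j2, Eif5a2, Eif4e1b, Eif4ebp3 and Eef1akmt3 lie at or under 3 reads.

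Between the libraries, 59 genes with at least 20 summed reads could be tested. The exact conditional binomial test asks whether a gene's reads split in proportion to the library totals, with Benjamini-Hochberg adjustment over all 9211 genes tested and a threshold of 0.05. Of the 59, 23 were lower in replicate 2 and 36 did not pass, while 0 were higher, which is 39.0% called. Among all genes tested, 26.4% were called in either direction, 17.9% as lower and 8.58% as higher. The median log2 ratio (replicate 2 over replicate 1, with 0.5 reads added) was -0.38 for the factor genes and -0.28 for all genes tested, and 50 of the 59 lay below 0. These calls rested on the scale. Scaling by edgeR's TMM factors moved every ratio up by 0.25 and gave 1 higher and 7 lower (11.9% and 6.98% of all genes). DESeq2 size factors gave 1 higher and 9 lower (11.7% and 7.12% of all genes). Scaling by spike-in reads, with both sets of spike-in RNAs counted together, moved every ratio up by 0.59. It gave 11 higher and 1 lower (22.5% and 1.85% of all genes). A scaling moves all ratios alike, so 38 of the 59 genes lay below the median of all genes under each of the 4. When a spread of 0.2 between replicates (coefficient of variation) was assumed, edgeR's exact test called none of the 59, that is 0 higher and 0 lower, with 3 at an unadjusted p under 0.05. The share of all genes called with this spread is not given here, so these counts are not read as particular to the factor genes. In what follows, "lower" and "higher" mean past the binomial test scaled by total gene reads, and each error is a standard error from counting alone. Of the 23 genes called lower, 12 had a ratio above 0 under spike-in scaling and 11 a ratio below 0. Counts of lower genes per role below stand beside 23 of 59 for all factor genes and 17.9% of all genes tested. No role was tested against these shares.

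**Figure D2:**
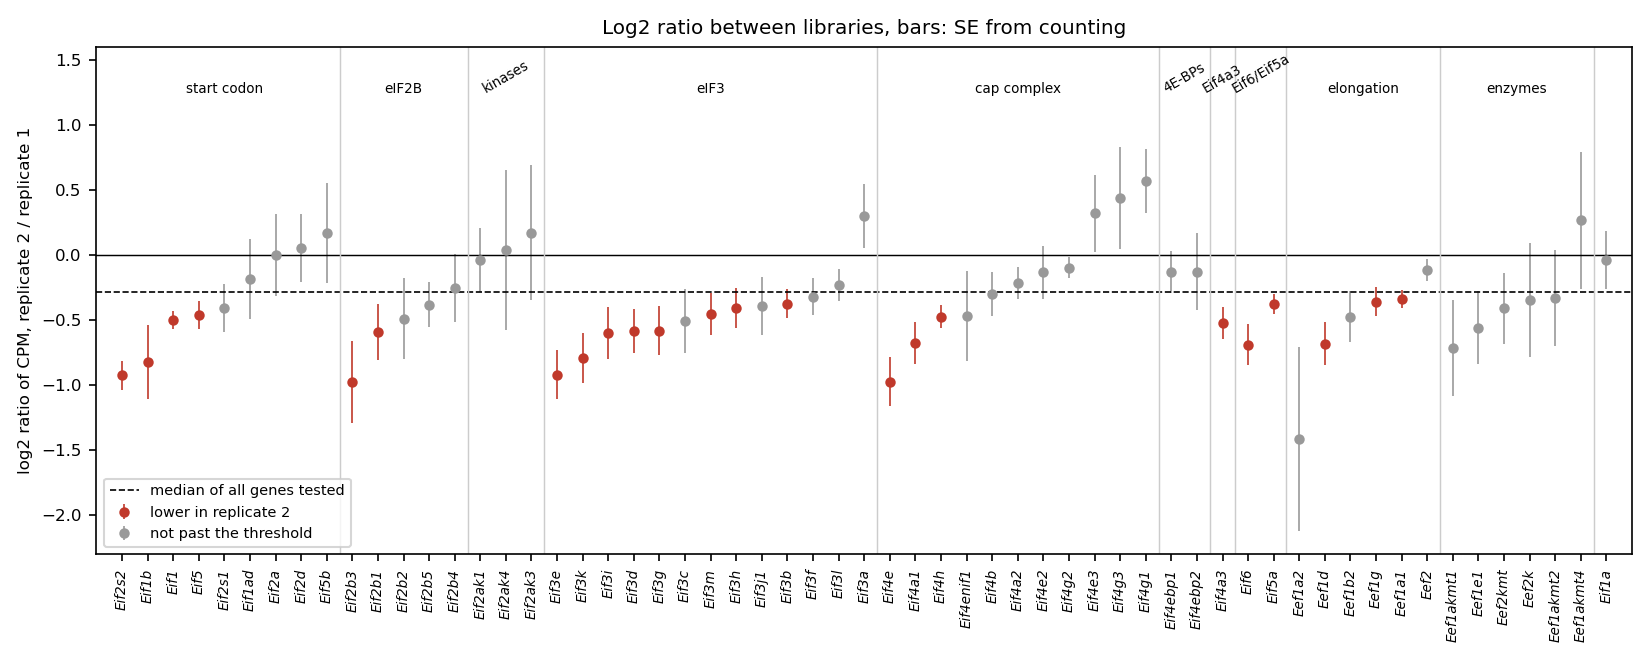
Log2 ratio of CPM, replicate 2 over replicate 1, for the 59 genes tested, grouped by role and ordered within a role; points in red were lower in replicate 2, points in grey did not pass the threshold, bars are the standard error from counting, and the dashed line is the median of all genes tested (-0.28). Most points lie below 0, and the points above 0 are all grey.

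The list of start codon and ternary complex genes included the factor gene with the lowest p, Eif2s2. It also takes in Eif5b, which joins the subunits, and Eif1ad, and it leaves out Eif1a. Of the 9 genes on this list, 4 were lower in replicate 2 and 5 did not pass, with a median log2 ratio of -0.41. Eif1, which keeps the scanning ribosome open until the start codon is met, had 648 reads (685 CPM) in replicate 2, against 1032 reads (968 CPM) in replicate 1. Its log2 ratio was -0.50 ± 0.07. Eif5, which triggers GTP hydrolysis by eIF2, had 332 CPM in replicate 2, against 457 CPM in replicate 1, with a log2 ratio of -0.46 ± 0.10. Eif2s2, the beta subunit of eIF2, had 233 reads (246 CPM) in replicate 2, against 499 reads (468 CPM) in replicate 1. Its log2 ratio was -0.93 ± 0.11 (adjusted exact binomial p = 1.64e-15), and it was the one factor gene lower under all 4 scalings. The alpha subunit gene Eif2s1, whose protein carries the regulatory phosphorylation site, had 109 CPM in replicate 2, against 145 CPM in replicate 1, and did not pass (-0.41). The difference between the ratios of Eif2s2 and Eif2s1 was not tested.

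Eif1b, the close paralogue of Eif1, had 40.1 CPM in replicate 2, against 71.3 CPM in replicate 1, and was lower in replicate 2 (-0.82 ± 0.29). Eif1 was the higher of the pair in both libraries. The 4 remaining genes of the group had log2 ratios smaller in size than their standard errors, from -0.18 for Eif1ad to 0.17 for Eif5b. Eif2d, which can deliver initiator tRNA without GTP, had 62.3 CPM in replicate 2, against 60.1 CPM in replicate 1. Eif2a, another alternative carrier of initiator tRNA, had 41.2 CPM in replicate 2, against 41.3 CPM in replicate 1. The lowest was Eif5b, the GTPase that joins the ribosomal subunits, with 29.6 CPM in replicate 2, against 26.3 CPM in replicate 1. Eif1a, which encodes eIF1A and falls in none of the role lists, had 80.3 CPM in replicate 2, against 82.6 CPM in replicate 1.

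The exchange factor eIF2B, which reloads eIF2 with GTP, was covered by all 5 of its subunit genes. Of these, 2 were lower in replicate 2 and 3 did not pass, and the summed level was 321 CPM in replicate 2, against 454 CPM in replicate 1. Eif2b3, the gamma subunit, had 30 reads (31.7 CPM) in replicate 2, against 67 reads (62.9 CPM) in replicate 1. Its log2 ratio of -0.98 ± 0.31 was the lowest of any gene called. Eif2b1, the alpha subunit, had 75.0 CPM in replicate 2, against 114 CPM in replicate 1 (-0.59 ± 0.22). Eif2b5, the catalytic epsilon subunit, had the highest level, 124 CPM in replicate 2, against 161 CPM in replicate 1, and did not pass. Eif2b2 had 35.9 CPM in replicate 2, against 50.7 CPM in replicate 1, and did not pass; it was the lowest by mean level and in replicate 1, whereas Eif2b3 was the lowest in replicate 2. None of the 3 kinases of eIF2 that were tested passed. Eif2ak1, the kinase responsive to heme shortage, had 66.6 CPM in replicate 2, against 68.5 CPM in replicate 1. Eif2ak3, the kinase of endoplasmic reticulum stress, had 15 reads in replicate 2, against 15 in replicate 1. Eif2ak4, the kinase of amino acid shortage, had 10 reads in replicate 2, against 11 in replicate 1. Eif2ak2, the kinase activated by double-stranded RNA, had 1 read in replicate 2, against 3 in replicate 1, at or under the limit of 3 counts.

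eIF3, the largest initiation factor, prepares the small subunit for mRNA and is built from many subunits. Of 14 genes of the complex, 13 were tested, 8 were lower in replicate 2 and 5 did not pass, with a median log2 ratio of -0.46. The tested subunits spanned 4.86-fold in level in replicate 2 and 6.20-fold in replicate 1. Eif3b, which helps to form the core with Eif3a, was highest, at 287 CPM in replicate 2, against 373 CPM in replicate 1 (-0.37 ± 0.11). Eif3l had 243 CPM in replicate 2, against 285 CPM in replicate 1, and did not pass (-0.23). Eif3e had 86 reads (90.9 CPM) in replicate 2, against 184 reads (173 CPM) in replicate 1, with a log2 ratio of -0.92 ± 0.19. Eif3k, a small peripheral subunit, had 90.9 CPM in replicate 2, against 158 CPM in replicate 1 (-0.79 ± 0.19). Eif3d, which can itself bind the cap, had 121 CPM in replicate 2, against 182 CPM in replicate 1 (-0.58 ± 0.17). The other 4 called subunits, Eif3g, Eif3h, Eif3i and Eif3m, had log2 ratios of -0.58, -0.41, -0.60 and -0.46. Eif3a, the scaffold of the complex and the gene with the longest transcript in it after Eif3j1, was the one subunit above 0, with 70 reads (74.0 CPM) in replicate 2, against 64 reads (60.1 CPM) in replicate 1, and did not pass. Subunits of 1 complex thus had ratios from -0.92 to 0.30. Eif3f had 184 CPM in replicate 2, against 229.9 CPM in replicate 1, and did not pass.

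The complex that binds the cap and unwinds the mRNA was led by 2 genes. Of 12 genes, 11 were tested, 3 were lower in replicate 2 (Eif4e, Eif4a1 and Eif4h) and 8 did not pass. Eif4g2, an eIF4G relative that lacks the eIF4E-binding region, had 579 reads (612 CPM) in replicate 2, against 698 reads (655 CPM) in replicate 1, and its log2 ratio of -0.10 ± 0.08 did not pass. Eif4h, which stimulates the helicase eIF4A, had 443 reads (468 CPM) in replicate 2, against 693 reads (650.4 CPM) in replicate 1 (-0.47 ± 0.09). Eif4e, which binds the cap itself, had 88 reads (93.0 CPM) in replicate 2, against 195 reads (183 CPM) in replicate 1. Its log2 ratio was -0.97 ± 0.18 (adjusted exact binomial p = 8.19e-07).

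Within the eIF4E family, Eif4e2, which encodes the cap-binding protein 4EHP, had 98.3 CPM in replicate 2, against 108 CPM in replicate 1, and Eif4e3 had 52.8 CPM in replicate 2, against 42.2 CPM in replicate 1. Eif4e was higher than Eif4e2 in replicate 1, whereas in replicate 2 their levels lay close together. Eif4e1b, known for its expression in oocytes, had 1 read in replicate 2, against 0 in replicate 1. Eif4enif1, the transporter that carries eIF4E into the nucleus, had 29.6 CPM in replicate 2, against 41.3 CPM in replicate 1.

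The scaffold genes of the eIF4G family differed widely in level. Eif4g1, the main scaffold, had 78 reads (82.4 CPM) in replicate 2, against 59 reads (55.4 CPM) in replicate 1. Its log2 ratio of 0.57 ± 0.25 was the highest of all 59 genes and did not pass by total reads (adjusted exact binomial p = 0.0713); it was called higher in replicate 2 under the other 3 scalings. Eif4g3 had 29 reads in replicate 2, against 24 in replicate 1. Eif4g2 thus exceeded both relatives in both libraries, although reads of the very long Eif4g1 and Eif4g3 transcripts were mostly incomplete, as given below. Eif4b, a cofactor of the helicase, had 133 CPM in replicate 2, against 164 CPM in replicate 1, and did not pass.

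The helicase genes are close relatives. Eif4a2 had 255 CPM in replicate 2, against 296 CPM in replicate 1, and did not pass (-0.21). Eif4a1 had 129.9 CPM in replicate 2, against 208 CPM in replicate 1 (-0.68 ± 0.16). A near-identical copy makes this level uncertain. The processed pseudogene Eif4a-ps4 on chromosome 1 matched the Eif4a1 transcript at 99.9% over 1218 nt, with 1 mismatch, and drew 105 reads in replicate 2, against 208 in replicate 1. The reads of both loci summed to 228 in replicate 2 and 430 in replicate 1, a log2 ratio of -0.74. Of the reads assigned to Eif4a1 itself, 8 of 123 in replicate 2 and 19 of 222 in replicate 1 held no intron, so most were spliced. Whether the reads at the pseudogene, which has no introns, came from Eif4a1 cannot be told from the counts, so its level may be higher than given here. Eif4a3, a helicase of the exon junction complex that marks spliced mRNA, had 231 CPM in replicate 2, against 332 CPM in replicate 1 (-0.52 ± 0.12).

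The 4E-binding proteins, which compete with eIF4G for eIF4E, had no call. Eif4ebp1 had 144 reads (152 CPM) in replicate 2, against 178 reads (167 CPM) in replicate 1, with a log2 ratio of -0.13 ± 0.16. Eif4ebp2 had 45.4 CPM in replicate 2, against 49.7 CPM in replicate 1, but 38 of its 43 reads in replicate 2 and 48 of 53 in replicate 1 held no intron. Eif4ebp3 had 1 read in replicate 2, against 0 in replicate 1. Eif4ebp1 was the highest of the 3 in both libraries. Beside Eif4e, it had 144 reads to 88 in replicate 2, against 178 to 195 in replicate 1.

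Eif5a, the only well-read gene of the hypusine pair, had 624 reads (659 CPM) in replicate 2, against 911 reads (855 CPM) in replicate 1. Its protein, which carries the amino acid hypusine, helps ribosomes through stalling sequences, and its log2 ratio was -0.37 ± 0.07. Under spike-in scaling this call too turned round, with a ratio of 0.21 and an adjusted exact binomial p of 0.0247 for higher in replicate 2. The paralogue Eif5a2 had 0 reads in replicate 2, against 2 in replicate 1. Eif6, which keeps free large subunits from joining, had 139 CPM in replicate 2, against 225 CPM in replicate 1 (-0.69 ± 0.16).

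Among the elongation factors, 3 of 6 genes were lower in replicate 2 and 3 did not pass. Eef1a1, which delivers aminoacyl-tRNA, was the most-read gene of the family, with 729 reads (770.2 CPM) in replicate 2, against 1037 reads (973 CPM) in replicate 1. Its log2 ratio was -0.34 ± 0.07 and it was lower by total reads, but under spike-in scaling the call turned round, with a ratio of 0.25 and an adjusted exact binomial p of 0.00258 for higher in replicate 2. Eef1a2, the paralogue known from neurons, heart and muscle, had 5 reads in replicate 2, against 16 in replicate 1, and did not pass in spite of a log2 ratio of -1.41 ± 0.71. Replicate 2 held more reads of skeletal muscle markers and fewer of chromaffin markers, and which cells the Eef1a2 reads came from was not tested. The exchange complex of eEF1A was represented by Eef1g at 315 CPM in replicate 2, against 404 CPM in replicate 1 (-0.36 ± 0.11), by Eef1d at 121 CPM in replicate 2, against 195 CPM in replicate 1 (-0.68 ± 0.17) and by Eef1b2 at 93.0 CPM in replicate 2, against 129.5 CPM in replicate 1, which did not pass. Eef2, which translocates the ribosome, had 493 reads (521 CPM) in replicate 2, against 601 reads (564 CPM) in replicate 1, and did not pass (-0.11 ± 0.09).

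None of the 6 tested enzymes and partners of elongation factors passed. Eef2kmt, which methylates eEF2, was the highest by mean level, at 48.6 CPM in replicate 2, against 64.8 CPM in replicate 1. Eef1e1, a partner in the aminoacyl-tRNA synthetase complex, had 44.4 CPM in replicate 2, against 65.7 CPM in replicate 1. Eef2k, the kinase that inhibits eEF2, had 18 reads in replicate 2, against 26 in replicate 1. Of the lysine methyltransferase genes of eEF1A, Eef1akmt1 had 24.3 CPM in replicate 2, against 40.4 CPM in replicate 1. Eef1akmt2 had 27.5 CPM in replicate 2, against 34.7 CPM in replicate 1, and Eef1akmt4 had 15.8 CPM in replicate 2, against 13.1 CPM in replicate 1. Eef1akmt3 had 0 reads in replicate 2, against 1 in replicate 1.

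Of the factor genes, 9 have mRNAs known to begin with a terminal oligopyrimidine tract, the feature that places ribosomal protein mRNAs under growth control. Among them, 5 were lower in replicate 2 (Eef1a1, Eef1d, Eef1g, Eif3e and Eif3h) and 4 did not pass (Eef1b2, Eef2, Eif3f and Eif4b). Of all 59 factor genes tested 23 were lower, and of all genes tested 17.9%, and these shares were not compared by a test. The median log2 ratio of the 9 was -0.36, near the -0.38 of all the factor genes. These tracts lie at the very start of the mRNA, and no 5′ ends were analysed here.

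The log2 ratio went with the length of the transcript. Over 58 tested genes with an annotated leading transcript, Spearman's rho between length and log2 ratio was 0.50, against 0.17 over 8973 genes (a description over genes that share both libraries). The median log2 ratio of the factor genes was -0.54 for the 14 genes up to 1500 nt, -0.47 for the 20 from 1500 to 2500 nt, -0.37 for the 13 from 2500 to 4000 nt and -0.04 for the 11 over 4000 nt. Over all genes the same 4 classes had medians of -0.39, -0.34, -0.26 and -0.06. The factor genes lower in replicate 2 numbered 10 of 14, 10 of 20, 2 of 13 and 1 of 11 in these classes, from short to long, against 532 of 1952, 556 of 2449, 395 of 2685 and 132 of 1887 of all genes. Eif3a, Eif4g1 and Eif5b, whose ratios lay above 0, have transcripts over 4000 nt, whereas Eif2b3, Eif4e and Eif3e have transcripts near 1500 nt. Other genes departed from this: Eef1akmt4, with 1134 nt, had a ratio of 0.27, Eif4e3, with 2515 nt, had 0.32, and Eif2s2, with 2542 nt, had -0.93. In each of the 3 shorter classes 1 gene lay above 0, and in the longest 5 did. The part of length in the differences between genes was not tested. Of the Eif5b reads, 6 of 28 in replicate 2, against 16 of 28 in replicate 1, lay on models that lacked the 3′ part of a chain.

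**Figure D3:**
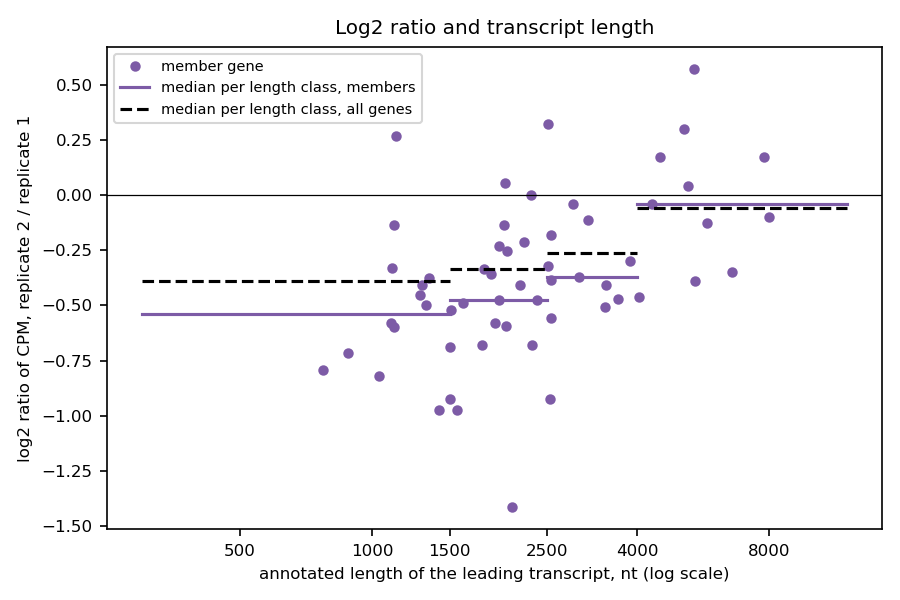
Log2 ratio of CPM, replicate 2 over replicate 1, against annotated length of the leading transcript (log scale) for 58 factor genes; horizontal lines give the median of the factor genes (solid) and of all genes tested (dashed) in 4 length classes. The points climb with length, from a median of -0.54 in the shortest class to -0.04 in the longest.

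A long read also shows which introns were removed from 1 cDNA. Isoforms are described by the chain of introns, counted over complete models, and a second chain counted as in use when it held 10% or more of a gene's chain reads in both libraries. Of 50 factor genes with at least 20 chain reads in each library, 5 had a second chain in use, which is 10%, against 25.0% of 5076 genes. The leading chain held a median of 94.4% of chain reads in replicate 2 and 94.3% in replicate 1, against 88.9% in replicate 2 and 87.9% in replicate 1 over all genes, and 32 of the 50 genes held 90% or more on it in both libraries. Eef1a1 is an example, with 97.4% in replicate 2, against 98.1% in replicate 1 on its leading chain of 7 introns. Between the libraries the leading share passed Fisher's exact test in 0 of 49 factor genes after adjustment over 4972 genes, where 0.603% of all genes were called. At an unadjusted exact p under 0.05 there were 4, namely Eif1, Eif5a, Eif3j1 and Eef1akmt2, and the lowest adjusted p was 0.727. The share of all genes under this unadjusted cut is not given, so the 4 are not read as a result. A miss at this depth does not show that the shares were equal.

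**Figure D4:**
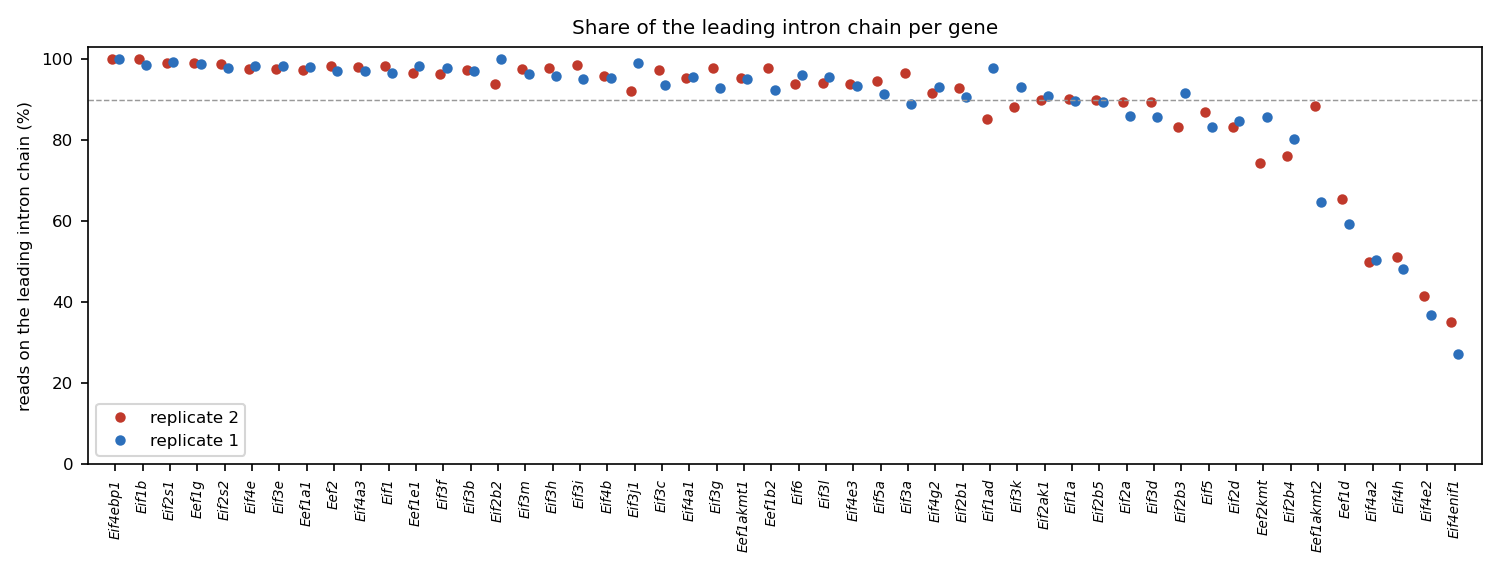
Share of chain reads (%) on the leading intron chain in replicate 2 (red) and replicate 1 (blue) for the 50 genes with at least 20 chain reads in each library, ordered by the mean; the dashed line is at 90%. Most genes lie above 90% in both libraries, and Eif4e2, Eif4enif1, Eif4h, Eif4a2 and Eef1d lie lowest.

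To find where isoforms parted, reads of every class that span a splice choice were counted, a count chosen after the data were seen. In 7 genes, 10 local choices had both forms at 10% or more in both libraries, and 5 of them were cassette exons. No such count over all genes is given here, so whether 7 genes is few or many cannot be told. The 3 in-frame exons with most reads are printed here because they change the encoded protein, in the sense of the transcript, with the alternative stretch in capitals and 15 nt of the neighbouring exons in lower case. The sequences are from the GENCODE M21 transcripts Eif4g2-213, Eif4h-205 and Eef1d-218 (mm10).
Eif4g2, chr7:111076280-111076393, minus strand, 114 nt: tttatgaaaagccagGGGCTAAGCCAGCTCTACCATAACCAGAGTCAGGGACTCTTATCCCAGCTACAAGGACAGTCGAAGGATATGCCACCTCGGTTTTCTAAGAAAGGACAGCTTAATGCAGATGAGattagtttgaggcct
Eif4h, chr5:134624441-134624500, minus strand, 60 nt: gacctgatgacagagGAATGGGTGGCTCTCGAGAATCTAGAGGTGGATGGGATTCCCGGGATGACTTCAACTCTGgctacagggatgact
Eef1d, chr15:75900691-75900762, minus strand, 72 nt: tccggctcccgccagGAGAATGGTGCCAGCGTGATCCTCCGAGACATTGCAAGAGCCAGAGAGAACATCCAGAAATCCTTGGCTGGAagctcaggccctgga
Each of these exons is coding in the annotation, has a length that is a multiple of 3 and holds no stop codon in its frame, so that leaving it out keeps the reading frame.

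The Eif4g2 exon of 114 nt, which codes for 38 residues, was present in 425 of 560 reads in replicate 2 (75.9%, exact Clopper-Pearson 95% interval 72.1% to 79.4%), against 494 of 674 reads in replicate 1 (73.3%, 69.8% to 76.6%). The mean was 74.6% ± 1.84 (SD, n = 2). This choice was missed by the count of complete chains, which put 91.7% in replicate 2, against 93.2% in replicate 1 on the chain with the exon. Of the reads without it, 127 of 135 in replicate 2 and 172 of 180 in replicate 1 were assigned to models that lacked the 5′ part of a chain. Among the reads with the exon, only 18 in replicate 2 and 19 in replicate 1 were in this class. Whether the reads without the exon were incomplete cannot be told from the class. The Eif4h exon of 60 nt, printed above, was present in 189 of 398 reads in replicate 2 (47.5%, 42.5% to 52.5%), against 322 of 630 in replicate 1 (51.1%, 47.1% to 55.1%). The mean was 49.3% ± 2.56 (SD, n = 2). Eif4h mRNA was thus split almost evenly between both forms in each library, and the intervals overlap. The Eef1d exon of 72 nt was present in 78 of 106 reads in replicate 2 (73.6%, 64.1% to 81.7%), against 140 of 193 in replicate 1 (72.5%, 65.7% to 78.7%). The mean was 73.1% ± 0.740 (SD, n = 2). For each of these 3 exons the intervals of both libraries overlap.

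A further 2 stretches are shown because the first adds no more than 3 nt and the second was left out by most reads in both libraries.
Eif4a2, chr16:23108585-23108587, plus strand, 3 nt: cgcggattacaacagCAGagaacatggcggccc
Eif4enif1, chr11:3233988-3234059, plus strand, 72 nt: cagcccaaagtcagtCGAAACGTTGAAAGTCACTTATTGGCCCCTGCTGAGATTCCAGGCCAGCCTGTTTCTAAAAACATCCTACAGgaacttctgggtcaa
In Eif4a2 a pair of acceptors 3 nt apart was used, and the upstream one, which keeps the 3 capital letters in the mRNA, was read in 57 of 221 reads in replicate 2 (25.8%, 20.2% to 32.1%), against 89 of 285 in replicate 1 (31.2%, 25.9% to 37.0%). A similar pair of acceptors 3 nt apart in Eif4g1 kept the extra 3 nt in 22 of 54 reads in replicate 2 (40.7%, 27.6% to 55.0%), against 6 of 28 in replicate 1 (21.4%, 8.30% to 41.0%). The intervals overlap at both genes. Eif4a2 also had a pair of donors 4 nt apart, whose longer form is not annotated, and used it in 16 of 28 reads in replicate 2, against 18 of 32 in replicate 1.

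Eif4enif1 had 2 choices on the same reads. Its exon of 72 nt was present in 7 of 22 reads in replicate 2 (31.8%, 13.9% to 54.9%), against 14 of 32 in replicate 1 (43.8%, 26.4% to 62.3%). The longer of its 2 donors, which adds 195 nt that are not coding, was used in 12 of 23 reads in replicate 2, against 13 of 38 in replicate 1. Reads that span both showed all 4 combinations. The shorter donor without the exon was read most often, in 8 reads in replicate 2, against 13 in replicate 1. The longer donor without it was seen in 6 reads in replicate 2 and 6 in replicate 1, and the longer donor with it in 4 reads in replicate 2, against 5 in replicate 1. The shorter donor with the exon was seen in 1 read in replicate 2, against 7 in replicate 1. Only 1 of the 4 chains with most reads, Eif4enif1-203, is annotated, and the other 3 join annotated splice sites in combinations that the annotation lacks. In Eif4e2 a donor at position 87226233 of chromosome 1 led mainly to 3 acceptors. The nearest was used by 50 of 76 reads in replicate 2 (65.8%), against 68 of 100 in replicate 1 (68.0%). The farthest of the 3 was used by 18 reads in replicate 2 (23.7%), against 21 in replicate 1 (21%), and the middle one, which adds an exon of 79 nt, by 7 reads in replicate 2 (9.21%), against 7 in replicate 1 (7%). The order of the 3 acceptors was the same in both libraries. Eif4e2 reads also parted at the first intron, where the chains of Eif4e2-204 and Eif4e2-206 differ only in the donor. Eif4e2-204 held 37 of 89 chain reads in replicate 2 (41.6%), against 40 of 109 in replicate 1 (36.7%). Eif4e2-206 held 10 of 89 in replicate 2 (11.2%, 5.52% to 19.7%), against 26 of 109 in replicate 1 (23.9%, 16.2% to 33.0%). The share of Eif4e2-206 was not tested between the libraries.

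**Figure D5:**
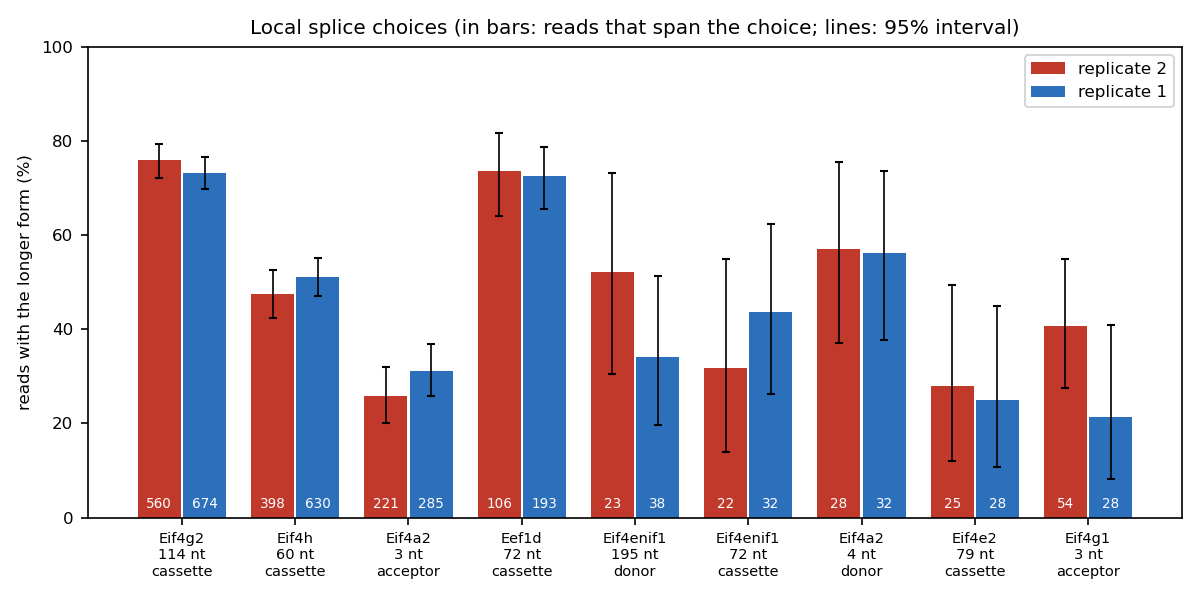
Share of reads (%) with the longer form at 9 local splice choices up to 300 nt in replicate 2 (red) and replicate 1 (blue), ordered by reads in replicate 1; lines are exact Clopper-Pearson 95% intervals and the numbers inside bars are the reads that span the choice. The exons of Eif4g2 and Eef1d stand between 72.5% and 75.9% and that of Eif4h at 47.5% in replicate 2 and 51.1% in replicate 1.

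Most reads of the factor genes matched annotated transcripts. Models with an annotated intron chain (Known) held 83.5% of them in each library, against 78.2% of all gene reads in replicate 2 and 76.1% in replicate 1. Models that lacked the 5′ part of an annotated chain held 9.25% in replicate 2 and 9.21% in replicate 1. Among Known reads, 99.6% lay on transcripts annotated as protein coding in each library, while transcripts annotated as retaining an intron held 13 reads in replicate 2 and 17 in replicate 1, and targets of nonsense-mediated decay held 4 in replicate 2 and 9 in replicate 1. Of 495 unannotated chains, 376 had a single read, 77 were seen in both libraries and 30 of these had at least 5 reads. Together the unannotated chains held 371 reads in replicate 2 and 524 in replicate 1, against 7118 in replicate 2 and 10516 in replicate 1 on the 117 annotated chains.

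Reads without their 5′ part were frequent for several genes, and those given here are examples. In Eif4g1 they made up 51.3% in replicate 2, against 66.1% in replicate 1, and in Eif4g3 79.3% in replicate 2, against 79.2% in replicate 1. Both genes have long transcripts, and their complete chains rested on 28 and 3 reads in replicate 2, against 11 and 3 in replicate 1, so that no isoform share is given for either beyond the acceptor pair above. In Eef2 the share was 28.2% in replicate 2, against 26.5% in replicate 1, and in Eif3c 28.6% in replicate 2, against 27.8% in replicate 1. In Eef1a1, whose transcript is short, it was 16.2% in replicate 2, against 19.7% in replicate 1. Eif3i, with only 1123 nt, had 20.7% in replicate 2, against 25.7% in replicate 1. Eif4g2 had 26.6% in replicate 2, against 28.8% in replicate 1. The share was 19.0% in replicate 2, against 29.7% in replicate 1, for Eif4b, and 26.2% in replicate 2, against 15.7% in replicate 1, for Eef1e1. Eif1 and Eif1b had no read in this class in either library. For Eif1, some reads held only the last introns of its leading chain but matched shorter annotated transcripts. These were Eif1-203, with 3 reads in replicate 2, against 14 in replicate 1, and Eif1-202, with 5 in replicate 2, against 6 in replicate 1. Whether these reads lacked a 5′ part cannot be told from the class.

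Near-identical copies were sought for the 62 factor genes with an annotated leading transcript. At least 1 copy was found for 17 of them, at 95% identity or more over at least 50% of the shorter transcript; of 46 such loci in all, 9 drew any read. These include Emd, another protein-coding gene with a matching stretch to Eif1, whose reads, 2 in replicate 2 and 18 in replicate 1, are not taken as those of an Eif1 copy. Apart from Eif4a1, the copies took little: the Eif1 pseudogene Gm14686 drew 3 reads in replicate 2, against 1 in replicate 1, and the Eef1g pseudogene Gm4366 drew 3 in replicate 2, against 5 in replicate 1. The copies of Eif5a, Eif2s2, Eif3e and Eif4e drew 0 reads in both libraries. Eif3j1 and Eif3j2 are such a pair, at 99.4% identity over 2379 nt, and the reads were assigned almost wholly to 1 of them: Eif3j1 had 69 reads in replicate 2, against 102 in replicate 1, and Eif3j2 had 1 read in replicate 2, against 2 in replicate 1. The Eif3j2 locus is no longer than its transcript of 2379 nt, so its reads could hold no intron. Its level is uncertain because of the near-identity to Eif3j1.

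Genes that act beside these factors were counted from a list of 32. Of 31 tested, 25 did not pass, 5 were lower in replicate 2 and 1 was higher, with a median log2 ratio of -0.33. Over all genes tested, 17.9% were lower and 8.58% higher, so the share of lower genes on the list was near that background. The 6 called genes are named here, chosen after their values were seen. Atf4, the transcription factor whose translation rises when eIF2 is phosphorylated, had 51.8 CPM in replicate 2, against 116 CPM in replicate 1 (-1.16 ± 0.24). Ddit3, a target of Atf4 that encodes CHOP, had 16.9 CPM in replicate 2, against 47.9 CPM in replicate 1 (-1.47 ± 0.41). Ppp1r15a, whose protein GADD34 helps to remove the phosphate from eIF2, had 24.3 CPM in replicate 2, against 52.6 CPM in replicate 1 (-1.09 ± 0.35). Their ratios stayed below 0 under spike-in scaling, at -0.57, -0.88 and -0.51, but did not pass there. Ppp1r15b, the constitutive counterpart, had 33.8 CPM in replicate 2, against 26.3 CPM in replicate 1, and did not pass. The other 2 lower genes were Pabpc1, the poly(A)-binding protein that contacts eIF4G, at 127 CPM in replicate 2, against 186 CPM in replicate 1 (-0.55), and Paip2, which inhibits it, at 454 CPM in replicate 2, against 642 CPM in replicate 1 (-0.50), and both lay above 0 under spike-in scaling (0.04 and 0.09). Mknk2, a kinase that phosphorylates eIF4E, was the one higher gene, at 417 CPM in replicate 2, against 244 CPM in replicate 1 (0.77 ± 0.12). The X-linked Eif1ax and Eif2s3x had 96.1 and 50.7 CPM in replicate 2, against 97.6 and 69.4 CPM in replicate 1, and neither passed.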

How the data were processed

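Adrenal gland RNA was read by long-read sequencing in 2 libraries. The deposited tables hold whole-number counts of reads per transcript model made by the authors, with each model's class, on assembly mm10 with GENCODE M21, per the file headers and the deposited notes; what aligned the reads is not given in the sources used here. Classes are Known, lacking one or both ends of an annotated chain, new combinations of known splice sites, new splice sites, and unspliced. Counts were summed per annotated gene, spike-ins left out. Genes were compared with an exact conditional binomial test (scipy 1.17.1) and leading chains with Fisher's exact test, both two-sided, with Benjamini-Hochberg adjustment over all genes tested; a minimum of 20 reads applied to each. Such p-values compare these 2 libraries, not conditions. TMM and the exact test with an assumed spread used edgeR 4.0.16, size factors DESeq2 1.42.0, and copies blastn 2.17.0. Alternatives covered scaling, read minimums, model classes and chain thresholds. The genes named are the 20 of highest mean CPM, up to 15 called with at least 50 reads, those with a second chain, the paralogue sets, and the lowest and highest of each role; others are named where a count of 5 or fewer or a length class falls outside this, chosen after their values were seen. The genes and lists were chosen with earlier results of these data known. Replicate number 2 and replicate number 1 are as the labels give them.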

Additional observations from a re-analysis of the deposited data

How the results depend on the processing

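Genes called higher in replicate 2 numbered 1 with TMM, 1 with DESeq2 size factors and 11 with spike-in reads, against 0 by total reads. Genes called lower numbered 7, 9 and 1 in that order, against 23, and 0 when a spread of 0.2 between replicates was assumed. For that spread no share of all genes is given. The median log2 ratio was 0.20 with spike-in reads. Spike-in scaling adds the same amount to every ratio, so ratios less than 0.59 below 0 move above it. Of the 23 genes called lower by total reads, 12 moved above 0 and 11 stayed below it. Eif2s2 was still called lower there (-0.34, adjusted exact binomial p = 0.0150). For the 17 named genes past the test under either scaling whose ratio changed sign, the values were Eef1a1 0.25, Eef1g 0.23, Eef2 0.47, Eif1 0.087, Eif3b 0.21, Eif3d 0.0061, Eif3g 0.0061, Eif3h 0.18, Eif3l 0.36, Eif3m 0.13, Eif4a2 0.37, Eif4a3 0.066, Eif4ebp1 0.45, Eif4g2 0.49, Eif4h 0.11, Eif5 0.13 and Eif5a 0.21 (each of these follows from the constant shift of 0.59). Named genes without a change of sign are not in that list. A second chain was in use in 3 genes at 20% or more and in 11 when models lacking an end counted as chains. No share of all genes is given at these settings, so the contrast with all genes holds for the main setting only. Leaving out a library gave 0.900% to 1.18% for the share of gene reads, 5 to 7 genes with a second chain, and 83.5% on Known models. Minimum reads, Known models only and the other chain settings kept each count within 1.5 times. No paired analysis was possible because both libraries belong to 1 group. With fewer than 20 chain reads in a library, 15 of the 65 genes give no isoform share.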
